A study of Mus musculus with 12 samples.

Results

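Solute carriers are membrane proteins that move ions, nutrients and metabolites across the cell surface and the membranes of organelles. Genes with a solute carrier symbol, 218 of them, were measured here in mouse mammary glands with and without the progesterone receptor. The members were chosen by gene symbol (Slc followed by a family number, with Slc7a2 left out) and by measured level, a signal above the array's own median on at least 3 of the 12 arrays. The symbol rule also took in genes named after a carrier that do not encode one, such as Slc9a3r1, Slc9a3r2, Slc4a1ap, Slc7a6os and Slc2a4rg-ps. Counts of solute carriers and of their classes below include them. The array held 652 solute carrier probe sets with a single symbol, for 346 genes. Of these, 351 probe sets passed the level filter, which left 218 genes as members and 128 genes outside, among 12004 genes tested in all. Where several probe sets of a gene passed, the one with the highest mean over the arrays stood for it. The glands came from ovariectomized female BALB/c mice of 10 weeks that were progesterone receptor null or wild type, called null and wild type from here on. Every mouse was given 17β-estradiol (100 ng) for 24 h, then 17β-estradiol together with progesterone (2.5 ug) for a further 24 h or 8 h, by the subcutaneous route. The 4 groups (null 24 h, wild type 24 h, null 8 h and wild type 8 h) had 3 arrays each, and each array held RNA pooled from 3 mice. The labels do not describe the null allele or which of the gland's cells lack the receptor. No group went without progesterone, and the 24 h groups also had 17β-estradiol for longer, so that length of progesterone and length of 17β-estradiol cannot be told apart in a difference between the times.

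In general, solute carriers work as uniporters, as symporters that couple a substrate to sodium, protons or chloride, or as exchangers that trade one substrate for another. The mammary epithelium depends on them in lactation, when iodide, zinc, phosphate, glucose and amino acids are carried from blood towards milk, and the surrounding fat depends on glucose and fatty acid carriers. Mitochondrial carriers of the Slc25 family pass metabolites across the inner mitochondrial membrane, and Slc35 proteins supply nucleotide sugars to the Golgi. Zinc carriers come in opposed families, with Slc39 proteins bringing zinc into the cytosol and Slc30 proteins taking it out. Some carriers need a partner, such as Slc7a5, an exchanger of large neutral amino acids that reaches the cell surface with the heavy chain encoded by Slc3a2.

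Levels are deposited log2 signals, and array medians lay between 5.84 and 5.91. The targeted gene, Pgr, was read by 3 probe sets. On the representing one, null pools at 24 h had 7.86, 7.33 and 7.20, against 7.84, 7.52 and 8.10 in wild type pools, and null pools at 8 h had 9.07, 8.56 and 9.04, against 10.01, 9.89 and 9.94 in wild type pools. Another was higher in null glands at both times (2.10 at 24 h and 1.97 at 8 h, log2), and the third was too low to be tested, so Pgr checks the genotype labels only in part. Markers of mammary epithelium and of white adipocytes were present in every group: all 10 epithelial, all 7 basal and all 5 white adipocyte genes on the array passed the level filter. The summed signal of 10 skeletal muscle markers varied between pools of 1 group by up to several log2 units and was lower in most null pools than in wild type pools. In such whole-gland RNA, fewer cells of a type and less RNA per cell cannot be told apart.

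Promoter sequences are shown for a gene that differed between genotypes at both times, Slc5a5, and for a pair of genes that hold the searched element, Slc22a18 (higher in null glands at 8 h) and Slc16a12 (lower at 24 h in both genotypes). Each is the 300 bases from 250 before to 50 after the gene's start in RefSeq (GRCm38.p6), 5′ to 3′ on the gene's strand: Slc5a5 at chr8:70892708-70893007 (minus strand), Slc22a18 at chr7:143473539-143473838 (plus strand) and Slc16a12 at chr19:34747279-34747578 (minus strand). Capitals mark AGAACA, the core of the element bound by the progesterone and glucocorticoid receptors, or its reverse complement TGTTCT, so that both strands were searched.
Slc5a5: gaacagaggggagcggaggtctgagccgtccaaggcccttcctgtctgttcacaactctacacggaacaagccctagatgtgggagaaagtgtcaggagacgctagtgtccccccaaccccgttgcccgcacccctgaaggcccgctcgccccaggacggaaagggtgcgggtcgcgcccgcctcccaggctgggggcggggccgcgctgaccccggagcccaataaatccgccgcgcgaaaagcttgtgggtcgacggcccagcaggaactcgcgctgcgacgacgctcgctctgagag
Slc22a18: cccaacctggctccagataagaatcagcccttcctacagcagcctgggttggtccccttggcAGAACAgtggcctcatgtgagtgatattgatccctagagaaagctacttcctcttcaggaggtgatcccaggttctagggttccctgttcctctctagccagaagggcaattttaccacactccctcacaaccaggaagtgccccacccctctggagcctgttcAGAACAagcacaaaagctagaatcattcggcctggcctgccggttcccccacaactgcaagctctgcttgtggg
Slc16a12: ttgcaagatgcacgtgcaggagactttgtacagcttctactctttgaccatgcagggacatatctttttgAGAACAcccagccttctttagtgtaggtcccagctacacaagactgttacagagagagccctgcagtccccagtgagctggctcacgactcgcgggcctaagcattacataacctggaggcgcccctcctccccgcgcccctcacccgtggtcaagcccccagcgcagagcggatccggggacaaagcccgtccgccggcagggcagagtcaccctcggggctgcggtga
The motif began 188 and 24 bases before the start of Slc22a18 and 180 bases before the start of Slc16a12, and these letters are not in the Slc5a5 window. Among the 170 members with a promoter, 17 held it (10.0%), and of 21 matched members called in at least 1 comparison 3 held it (14.3%), Slc15a2 being the other. These counts use the first promoter listed for a gene, and a second one listed for Slc7a1, also called, held TGTTCT 75 bases before its start. The share over all 27025 promoters was 19.0%. A match is a description of these letters and not of a binding site. Slc12a2, the other gene called between genotypes at both times, was not among the 21 matched members, so its promoter is not described here.

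At 8 h, null glands had more RNA for several carriers of inorganic ions and small solutes and less for a choline-like carrier, a glutamine carrier and carriers of zinc and of the mitochondria. A difference was called where limma's Benjamini-Hochberg adjusted p, taken over all 23709 probe sets tested, was under 0.05. Of the 218 genes 12 were called (5.5%, against 3.01% of all genes tested), 6 higher in null glands (1.42% of all genes were) and 6 lower (1.59%). The median difference of null minus wild type was -0.019 over the solute carriers and -0.010 over all genes (log2). Null and wild type pools did not overlap for 25.2% of the solute carriers and 24.9% of all genes, so such a separation is common.

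Slc5a5, the sodium/iodide symporter that concentrates iodide in thyroid and in lactating mammary gland, had log2 signals of 7.89, 7.67 and 8.09 in null pools at 8 h, against 5.83, 6.04 and 5.73 in wild type pools. All 3 null pools lay well above all 3 wild type pools, whose signals were near the array median. The difference was 2.02 (log2, SE 0.15, n = 3 per group), 4.04-fold, with adjusted p = 3.7e-05. Slc12a2, the sodium, potassium and chloride cotransporter of secretory epithelia, had 12.74, 12.62 and 12.85 in null pools, against 11.51, 11.60 and 11.43 in wild type pools. Those groups did not overlap either, and the difference was 1.22 (SE 0.09), 2.34-fold, with adjusted p = 3.7e-05. Its other passing probe sets, which read the same gene elsewhere, were called in the same direction (1.58 and 1.49, log2).

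Slc5a8, a sodium-coupled carrier of lactate and other monocarboxylates, had 8.09, 7.84 and 7.98 in null pools at 8 h and 6.42, 5.97 and 7.00 in wild type pools. Wild type pools spread over 1 log2 unit, but none reached the null pools, and the difference was 1.51 (SE 0.26), 2.84-fold, with adjusted p = 0.0093. Slc13a4, a sodium and sulfate cotransporter, had 7.43, 7.48 and 7.37 in null pools, against 6.44, 6.80 and 6.77 in wild type pools, a difference of 0.75 (1.68-fold, adjusted p = 0.0074). Slc22a18, an imprinted gene of the organic cation carrier family, had 7.01, 6.99 and 6.93 in null pools and 6.22, 6.52 and 6.56 in wild type pools (0.55, 1.46-fold, adjusted p = 0.027). In both of these genes the null pools were all above the wild type pools, but another passing Slc22a18 probe set differed by 0.16 and was not called (adjusted p = 0.63). Slc15a2, a proton-coupled carrier of small peptides, had 8.70, 9.37 and 8.53 in null pools and 7.41, 7.96 and 8.05 in wild type pools (1.06, 2.09-fold, adjusted p = 0.048).

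Among the genes lower in null glands at 8 h, Slc44a4, a choline-like carrier reported to move thiamine pyrophosphate, had 6.91, 6.13 and 6.47 in null pools, against 7.70, 7.70 and 7.87 in wild type pools. The highest null pool stayed below every wild type pool, and the difference was -1.25 (SE 0.18), 2.38-fold, with adjusted p = 0.0035. Slc1a5, which carries glutamine and other neutral amino acids, had 10.96, 10.67 and 11.24 in null pools and 11.62, 11.72 and 11.85 in wild type pools, a difference of -0.78 (1.71-fold, adjusted p = 0.022). Another Slc1a5 probe set differed by -0.08 and was not called (adjusted p = 0.81).

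Both zinc importers that were called moved the same way. Slc39a14, which also takes up iron and manganese, had 7.64, 7.87 and 7.97 in null pools at 8 h and 8.48, 8.47 and 8.77 in wild type pools (-0.75, 1.68-fold, adjusted p = 0.022). Slc39a1 had 9.67, 9.62 and 9.61 in null pools and 10.10, 10.12 and 10.27 in wild type pools (-0.53, 1.44-fold, adjusted p = 0.0065). For each of these genes every null pool was below every wild type pool, but another passing Slc39a14 probe set differed by -0.34 and was not called (adjusted p = 0.26). Of 17 zinc carriers 2 were called, with a class median of -0.01. Of the mitochondrial carriers 2 of 38 were called, again with a class median of -0.01.

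Slc25a29, a mitochondrial carrier of basic amino acids, had 7.29, 7.22 and 7.11 in null pools at 8 h and 7.68, 7.88 and 7.82 in wild type pools (-0.59, adjusted p = 0.0026). Its 4 other passing probe sets were also called lower in null glands, by -0.94 to -0.69. Slc25a37, mitoferrin, which brings iron into mitochondria for heme synthesis, had 7.45, 7.43 and 7.51 in null pools and 8.14, 8.00 and 8.16 in wild type pools (-0.64, 1.56-fold, adjusted p = 0.023). Slc40a1, ferroportin, the cell's iron exporter, was not called (-0.69, adjusted p = 0.12).

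The calls at 8 h of Slc12a2, Slc13a4, Slc25a29, Slc39a1, Slc44a4, Slc5a5 and Slc5a8 held whichever of the 12 pools was left out. Those of Slc1a5 (adjusted p 0.060 to 0.096) and Slc39a14 (0.057 to 0.078) were lost without any 1 wild type pool of that time, or without pool 1 or 2 of the null group. That of Slc25a37 was lost without any 1 of the 6 pools at 8 h (0.056 to 0.10), that of Slc22a18 without any 1 of the null pools or pools 1 or 2 of the wild type (0.063 to 0.12), and that of Slc15a2 without any 1 pool other than pools 2 and 3 of null 24 h (0.054 to 0.20). Marker levels differed between the same arrays. The summed signal of 8 brown adipocyte markers lay between 13.98 and 14.68 (log2) in null pools at 8 h and between 12.85 and 13.53 in wild type pools, and that of 10 epithelial markers between 13.18 and 13.37 in null pools and 12.91 and 13.08 in wild type pools. The 10 skeletal muscle markers summed to between 10.09 and 14.49 in null pools and 14.18 and 15.50 in wild type pools. The part of these cell types in the genotype differences was not tested.

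**Figure D1:**
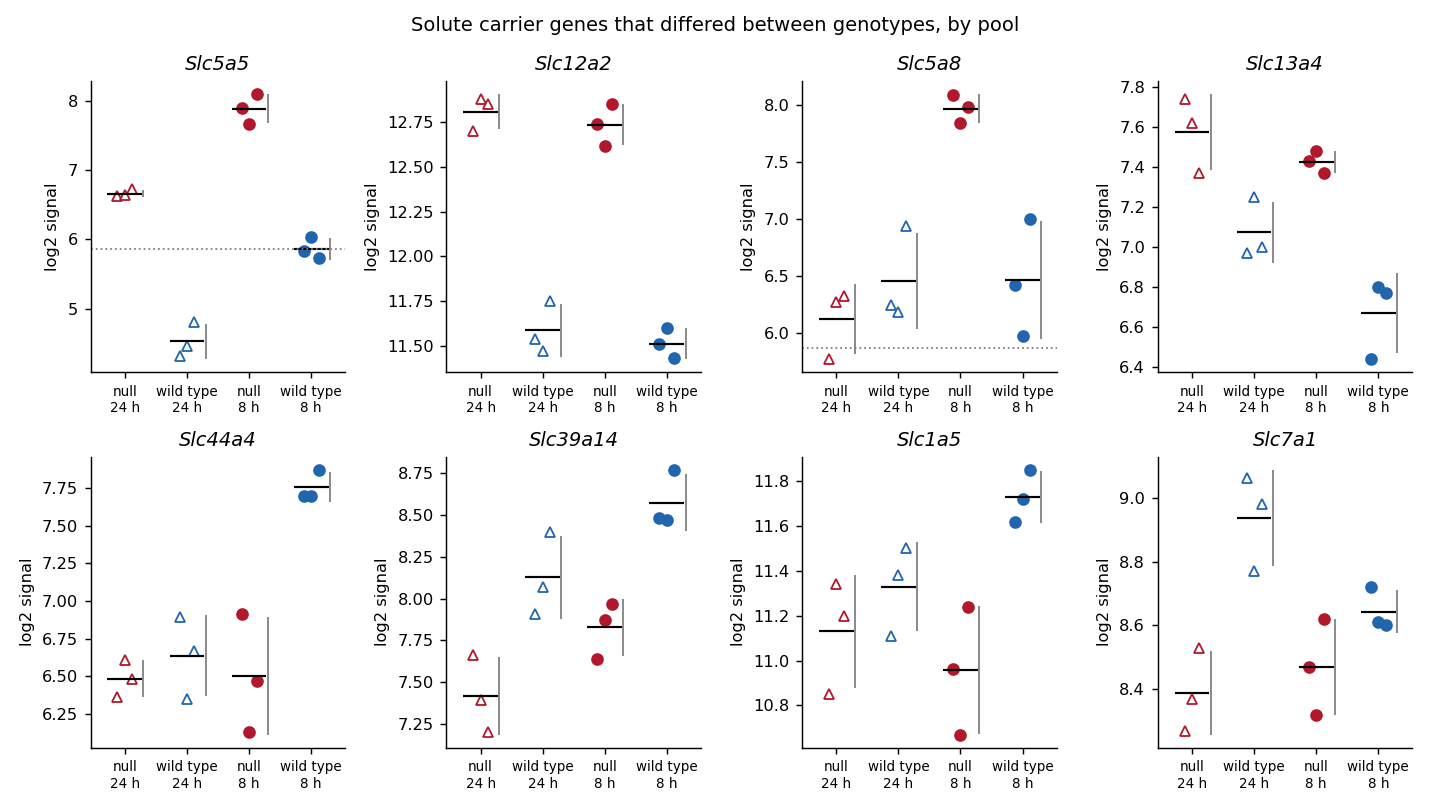
Log2 signal (vertical axis) of 8 solute carrier genes in each of 3 pools of the 4 groups (horizontal axis): null in red, wild type in blue, 24 h as open triangles and 8 h as filled circles. Black bars are group means, grey lines span 1 SD either side of the mean, and the dotted line in the Slc5a5 and Slc5a8 panels is the mean array median (5.87). Slc5a5 and Slc12a2 were higher in null pools at both times, whereas Slc5a8 and Slc44a4 stood apart in a single group.

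At 24 h, null glands again had more Slc5a5 and Slc12a2 RNA, and they had less Slc7a1 RNA. These were the 3 called genes of 218 (1.38%, against 1.30% of all genes tested), with 2 higher in null glands (0.250% of all genes were) and 1 lower (1.05%). The share is near that of all genes. The median difference was 0.011 over the solute carriers and -0.011 over all genes (log2). Null and wild type pools at 24 h did not overlap for 16.5% of the solute carriers and 15.9% of all genes.

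For Slc5a5, null pools at 24 h had 6.62, 6.64 and 6.72, against 4.32, 4.46 and 4.81 in wild type pools. The groups were far apart, and all wild type pools were under the array median, where signals carry less information. The difference was 2.13 (SE 0.15), 4.38-fold, with adjusted p = 8.2e-05. With signals under the lowest array median raised to it, the Slc5a5 difference was 0.82 (adjusted p = 0.0031). For Slc12a2, null pools had 12.70, 12.88 and 12.85 and wild type pools 11.54, 11.47 and 11.75, a difference of 1.22 (SE 0.09), 2.33-fold, with adjusted p = 9.0e-05. The other passing Slc12a2 probe sets were called again (1.03 and 1.54, log2). Slc5a5 and Slc12a2 were thus the genes higher in null glands at both times, 33.3% of the 6 called higher at 8 h and 100.0% of the 2 called higher at 24 h. The same overlap was not counted over all genes. The genes called lower at 8 h were not called at 24 h.

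Slc7a1, the main carrier of arginine and lysine in most tissues, had 8.27, 8.37 and 8.53 in null pools at 24 h and 9.06, 8.77 and 8.98 in wild type pools. Every null pool was below every wild type pool, and the difference was -0.55 (SE 0.10), 1.46-fold, with adjusted p = 0.031. That call was lost without pool 1 or 2 of null 24 h, pool 1 or 3 of wild type 24 h or pool 1 or 2 of wild type 8 h (adjusted p 0.051 to 0.13), and another Slc7a1 probe set differed by -0.53 without being called (0.20). Without wild type 24 h pool 2, 7 solute carriers were called in place of 3.

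Genes called at 8 h had a range of differences at 24 h. Slc39a14 had 7.66, 7.39 and 7.20 in null pools at 24 h and 7.91, 8.07 and 8.40 in wild type pools, a difference of -0.71 that missed the threshold (adjusted p = 0.054). Slc13a4 differed by 0.51 (adjusted p = 0.090) and Slc25a29 by -0.33 (0.089), in their directions at 8 h. Smaller values, all uncalled, were those of Slc15a2 (0.42), Slc22a18 (0.03), Slc1a5 (-0.20), Slc25a37 (-0.18) and Slc39a1 (-0.25). Slc5a8 had 5.77, 6.27 and 6.32 in null pools at 24 h and 6.24, 6.18 and 6.94 in wild type pools, so that the groups overlapped (-0.33, 95% interval -0.90 to 0.24). Slc44a4 had 6.36, 6.61 and 6.48 in null pools and 6.89, 6.35 and 6.67 in wild type pools, overlapping as well (-0.15, 95% interval -0.56 to 0.25). Slc3a2, the heavy chain of amino acid exchangers, had 9.78, 9.73 and 9.85 in null pools and 10.08, 10.20 and 10.10 in wild type pools (-0.34, adjusted p = 0.060).

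Carriers with a known place in milk or fat were mostly uncalled between genotypes. Slc2a1, the glucose carrier found on most cells, had 8.25, 8.43 and 8.56 in null pools at 24 h and 8.84, 8.52 and 9.10 in wild type pools (-0.41, adjusted p = 0.23), and at 8 h its difference was -0.06 (0.91). The insulin-responsive glucose carrier Slc2a4 differed by 0.21 at 24 h (95% interval -0.16 to 0.59) and by 0.04 at 8 h (-0.33 to 0.41). The zinc exporters Slc30a1 and Slc30a4 differed by -0.01 and -0.13 at 24 h and by 0.04 and -0.12 at 8 h. None of these values was called.

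Of the other carriers on that list, Slc34a2 (phosphate) differed by -0.01 at 24 h and -0.30 at 8 h, Slc20a1 (phosphate) by -0.04 and -0.23, and Slc6a6 (taurine) by -0.09 and 0.10. Slc38a2 (small neutral amino acids) differed by -0.19 at 24 h and -0.10 at 8 h, and Slc16a1 (lactate) by -0.12 and 0.36. Carriers tied to fat metabolism gave 0.14 at 24 h and -0.24 at 8 h for Slc25a1 (citrate), 0.08 and -0.05 for Slc27a1 (fatty acids), and 0.34 and 0.48 for Slc25a20 (acylcarnitine). Slc36a2, a proton-coupled amino acid carrier of the brown adipocyte surface, differed by 0.22 and 0.30, and Slc40a1 by -0.44 at 24 h. The adjusted p of these genes ranged upward from 0.12, the value of Slc40a1 at 8 h. Slc30a2, Slc6a14 and Slc16a3, which were on the same list, did not pass the level filter.

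Brown adipocyte markers summed to between 14.10 and 14.76 in null pools at 24 h and between 13.20 and 14.37 in wild type pools. Basal markers summed to between 12.14 and 12.37 in null pools and 12.59 and 13.02 in wild type pools, and epithelial markers to between 12.82 and 13.08 in null pools and 12.99 and 13.45 in wild type pools. Their part in the differences at 24 h was not tested.

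**Figure D2:**
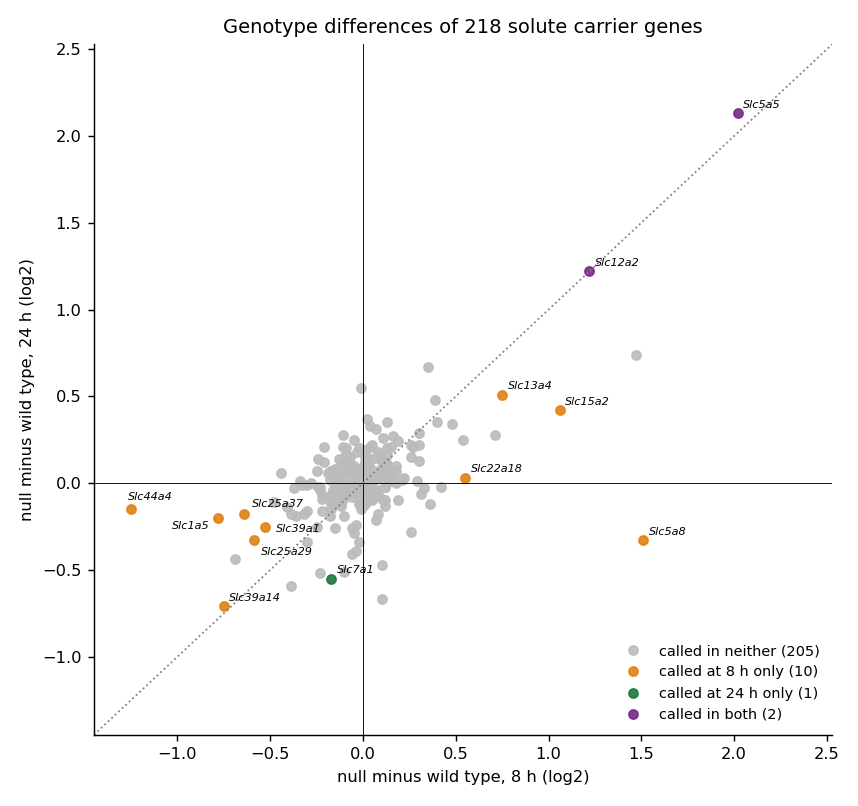
Difference of null minus wild type (log2) for 218 solute carrier genes at 8 h (horizontal axis) and at 24 h (vertical axis), with equal values on the dotted line. Slc5a5 and Slc12a2 (purple) were called at both times, 10 genes (orange) at 8 h, 1 gene (green) at 24 h and 205 (grey) at neither.

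Whether the genotype difference itself differed between the times was tested as the difference at 24 h minus that at 8 h. With limma 0 of 218 solute carriers were called (0.133% of all genes were), and 21 had an unadjusted p under 0.05 (9.63%, against 6.21% of all genes). The smallest adjusted p was 0.13, for Slc5a8, with a value of -1.84 (SE 0.37, 95% interval -2.65 to -1.02). Slc44a4 followed at 1.09 (SE 0.26, adjusted p = 0.23) and Slc35f3, a member of the nucleotide sugar carrier family, at -0.77 (adjusted p = 0.40). For Slc12a2 the 95% interval was -0.28 to 0.27, and for Slc5a5 it was -0.34 to 0.57. The Slc5a5 value turned to -1.16 (adjusted p = 0.012) with low signals raised to the lowest array median, because its wild type signals at 24 h lay under it. The calls at 8 h that were absent at 24 h are therefore not shown to be particular to 8 h.

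Over time in null glands, solute carrier RNAs that changed were mostly lower at 24 h than at 8 h. Of 218 genes 15 were called (6.88%, against 4.57% of all genes tested), 14 lower at 24 h (3.83% of all genes were) and 1 higher (0.733%). The median difference of 24 h minus 8 h was -0.024 over the solute carriers and -0.025 over all genes. Null pools of the times did not overlap for 30.7% of the solute carriers and 26.3% of all genes. The null 8 h arrays stand in this comparison and in that between genotypes at 8 h, so the results share those samples.

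In wild type glands 13 of 218 genes were called over time (5.96%, against 5.28% of all genes tested), and all 13 were lower at 24 h (3.83% of all genes were). The count of genes called higher was 0 with limma (1.45% of all genes), with 19 solute carriers higher at an unadjusted p under 0.05 (8.31% of all genes were). The median difference was -0.053 over the solute carriers and -0.009 over all genes. Wild type pools of the times did not overlap for 31.7% of the solute carriers and 26.2% of all genes. Of the genes called lower 8 were shared by both genotypes, 57.1% of the 14 in null and 61.5% of the 13 in wild type glands: Slc16a12, Slc25a33, Slc25a44, Slc33a1, Slc39a7, Slc3a2, Slc45a3 and Slc5a5. How many of all genes called lower were shared in this way was not counted.

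Slc16a12, a monocarboxylate family member that carries creatine, had 6.36, 6.76 and 6.52 in null pools at 24 h, against 7.56, 8.04 and 8.02 at 8 h. In wild type glands it had 6.44, 6.41 and 6.65 at 24 h, against 7.91, 7.87 and 8.01 at 8 h. The times were well separated in both genotypes, with differences of -1.33 in null (SE 0.14, 2.51-fold, adjusted p = 0.00094) and -1.43 in wild type glands (SE 0.14, 2.70-fold, adjusted p = 0.00063). At a given time the genotypes overlapped (0.05 at 24 h and -0.06 at 8 h).

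Slc5a5, whose pool values are given above, was lower at 24 h by -1.22 in null (2.33-fold, adjusted p = 0.0019) and by -1.34 in wild type glands (2.53-fold, adjusted p = 0.0012). The wild type value became -0.07 (adjusted p = 0.76) with low signals raised to the lowest array median, so the Slc5a5 call in wild type glands rests on signals under that level. Slc45a3, a member of a sugar carrier family known as prostein in human prostate, had 6.50, 6.08 and 6.15 in null pools at 24 h, against 7.76, 7.25 and 7.22 at 8 h. In wild type glands Slc45a3 had 6.69, 6.63 and 7.19 at 24 h, against 7.69, 7.79 and 7.94 at 8 h. The times did not overlap in either genotype (null -1.17, adjusted p = 0.0075; wild type -0.97, adjusted p = 0.015). By family number the sugar class thus held 3 of its 19 members among the genes lower at 24 h in null glands, and none of Slc5a5, Slc5a8 and Slc45a3 is known chiefly for glucose.

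Mitochondrial carriers were lower at 24 h where they were called. Slc25a33, a carrier of pyrimidine nucleotides, had 8.49, 8.53 and 8.51 in null pools at 24 h, against 9.26, 9.13 and 9.08 at 8 h, and 8.48, 8.79 and 8.36 in wild type pools at 24 h, against 9.64, 9.42 and 9.51 at 8 h. All pools at 24 h were below all pools at 8 h in both genotypes (null -0.65, adjusted p = 0.0085; wild type -0.98, adjusted p = 0.0010). Slc25a44, a carrier of branched-chain amino acids prominent in brown fat, was lower by -0.56 in null (adjusted p = 0.026) and -0.86 in wild type glands (adjusted p = 0.0036), though its 2 other passing probe sets were not called (-0.29 and 0.18 in null, -0.30 and -0.16 in wild type glands). Slc25a42, a carrier of coenzyme A, was called in null glands (-1.02, adjusted p = 0.048) and missed the threshold in wild type glands (-0.97, 0.051). Of 38 mitochondrial carriers 3 were thus called lower in null and 2 in wild type glands, with class medians of -0.02 in each.

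Of 29 carriers of amino acids and peptides 2 were called lower at 24 h in null glands and 1 in wild type glands, with class medians of -0.03 in null and -0.07 in wild type glands. Slc3a2, with the values at 24 h given above, had 10.41, 10.47 and 10.43 in null pools at 8 h and 10.45, 10.34 and 10.58 in wild type pools at 8 h. All pools at 24 h were lower than all pools at 8 h of the same genotype, by -0.65 in null (SE 0.07, 1.57-fold, adjusted p = 0.0014) and -0.33 in wild type glands (SE 0.07, 1.26-fold, adjusted p = 0.028). Its partner Slc7a5 had 6.69, 6.76 and 7.11 in null pools at 24 h, against 7.47, 7.54 and 7.50 at 8 h (-0.65, adjusted p = 0.024), and 7.32, 7.21 and 7.45 in wild type pools at 24 h, against 7.56, 7.13 and 7.52 at 8 h (-0.08, adjusted p = 0.78). The times did not overlap in null glands and did in wild type glands. The difference between the genotypes in these changes was -0.32 for Slc3a2 (adjusted p = 0.53) and -0.57 for Slc7a5 (0.54), neither of which was called. With the pool number as a block over the 6 null arrays, the Slc7a5 call missed the threshold (0.051). On those arrays without the block the call was missed too (0.055), and it held with a block over all 12 arrays.

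Of 17 zinc carriers, Slc39 importers and Slc30 exporters together, 3 were called lower at 24 h in null glands (3.83% of all genes were). All 3 were importers, which outnumber exporters in this class, and importers were not tested against exporters. Slc39a8, which also carries cadmium and manganese, had 7.40, 7.05 and 7.13 in null pools at 24 h, against 7.82, 7.95 and 7.88 at 8 h (-0.69, 1.61-fold, adjusted p = 0.011), and differed by -0.16 in wild type glands (adjusted p = 0.49). Slc39a6, an estrogen-responsive gene in human breast cancer cells, was lower by -0.44 in null (adjusted p = 0.037) and differed by -0.20 in wild type glands (0.30), and its other passing probe set was not called in null glands (-0.54, 0.13). Slc39a7, which releases zinc from the endoplasmic reticulum, was lower in both (-0.39 in null, adjusted p = 0.038, and -0.45 in wild type, adjusted p = 0.019) and was the 1 zinc carrier called in wild type glands. The zinc class median was -0.09 in null and -0.12 in wild type glands, against -0.025 and -0.009 over all genes. With the pool number as a block over the 6 null arrays, the calls of Slc39a6 (adjusted p = 0.077) and Slc39a7 (0.058) in null glands were lost. Without the block, the Slc39a6 call was lost on those arrays too (0.065), whereas that of Slc39a7 held. A block over all 12 arrays kept the calls of both genes.

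Carriers of the secretory pathway changed by small amounts. Slc33a1, which brings acetyl-CoA into the endoplasmic reticulum, was lower at 24 h by -0.37 in null (adjusted p = 0.037) and -0.36 in wild type glands (adjusted p = 0.036). From the nucleotide sugar family, Slc35a4 was lower in null glands (-0.37, adjusted p = 0.045), and Slc35c2 (-0.36, 0.044) and Slc35e1 (-0.28, 0.045) in wild type glands. Of 25 nucleoside and nucleotide sugar carriers 2 were called lower in null and 3 in wild type glands, with medians of -0.06 and -0.10. Slc35a4 differed by -0.27 in wild type glands (adjusted p = 0.11), but its other passing probe set was called lower in both genotypes. That probe set gave -0.42 in null (adjusted p = 0.044) and -0.41 in wild type glands (0.046). For Slc35c2 and Slc35e1, another passing probe set gave 0.04 (adjusted p = 0.92) and 0.06 (0.77) in wild type glands. Fitted to the 6 null arrays with a block on pool number, Slc33a1 (0.093) and Slc35a4 (0.097) were not called in null glands. Neither was called on those arrays without the block (0.11 and 0.12), and both calls held with a block over all 12 arrays.

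The largest fall in null glands was that of Slc5a8 among the genes called, -1.85 (SE 0.26, 3.60-fold, adjusted p = 0.0039), against -0.01 in wild type glands (95% interval -0.58 to 0.56). Slc44a4 was lower in wild type glands by -1.12 (SE 0.18, 2.17-fold, adjusted p = 0.0085), against -0.02 in null glands (95% interval -0.43 to 0.38). In each case 1 of the 4 groups stood apart, null 8 h for Slc5a8 and wild type 8 h for Slc44a4, and the other groups lay close together. Called in wild type glands too were Slc5a3, the myo-inositol carrier (-0.63, adjusted p = 0.014), and Slc26a2, a sulfate carrier (-0.61, 0.021), which differed by -0.14 and -0.41 in null glands. Another passing Slc26a2 probe set differed by -0.04 in wild type glands and was not called (0.90). Slc19a1, the reduced folate carrier, was the 1 gene called higher at 24 h, in null glands (0.53, adjusted p = 0.027), with 9.60, 9.66 and 9.47 at 24 h, against 9.26, 9.03 and 8.86 at 8 h, and in wild type glands it differed by 0.43 (0.053).

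Whichever pool was left out, 6 calls held in null glands (Slc16a12, Slc25a33, Slc3a2, Slc45a3, Slc5a5 and Slc5a8) and 5 in wild type glands (Slc16a12, Slc25a33, Slc25a44, Slc44a4 and Slc5a5). Among the null pools, the calls of Slc19a1 (adjusted p 0.054 to 0.11) and Slc7a5 (0.056 to 0.096) were lost without pool 1 or 2 at 24 h or pool 2 or 3 at 8 h, and that of Slc39a8 without pool 2 at 24 h or pool 3 at 8 h (0.052 to 0.053). Slc25a44 lost its call without pool 2 or 3 at 24 h or pool 1 or 3 at 8 h (0.062 to 0.099), and Slc33a1 without pool 1 or 2 at 24 h, pool 2 or 3 at 8 h or, in wild type at 8 h, pool 1 or 2 (0.059 to 0.14). Slc39a6 (0.054 to 0.12) and Slc39a7 (0.057 to 0.13) lost theirs without any 1 null pool, or pool 1 or 2 of wild type 8 h. Slc25a42 lost its call without any 1 pool but, at 24 h, pool 1 of null or pool 2 or 3 of wild type (0.060 to 0.17), and Slc35a4 without any 1 pool but wild type 8 h pool 3 (0.051 to 0.17).

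In wild type glands the call of Slc5a3 was lost without wild type 8 h pool 1 (adjusted p = 0.058), Slc26a2 without wild type 8 h pool 1 or 3 (0.051 to 0.10), Slc39a7 without wild type 8 h pool 1 or 2 (0.065 to 0.093) and Slc45a3 without wild type 8 h pool 1 (0.054). Slc3a2 lost its call without pool 1 or 3 of either wild type group (0.074 to 0.10), and Slc33a1 without any 1 wild type pool or pool 3 of null 8 h (0.054 to 0.11). The least stable were Slc35e1, lost without any 1 pool but pool 3 of null 24 h or pool 1 of null 8 h (0.053 to 0.12), and Slc35c2, lost without any 1 pool but pool 1 or 2 of null 24 h or pool 3 of wild type 8 h (0.052 to 0.17). The basal marker sum in null glands was 12.14 to 12.37 at 24 h and 12.82 to 13.05 at 8 h, and the epithelial sum was 12.82 to 13.08 at 24 h and 13.18 to 13.37 at 8 h, without overlap. The endothelial sum, of 6 markers, also did not overlap, at 11.55 to 11.81 at 24 h and 11.86 to 11.91 at 8 h in null glands. The part of these markers in the time differences in null glands was not tested. In wild type glands all 3 sums overlapped between the times.

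**Figure D3:**
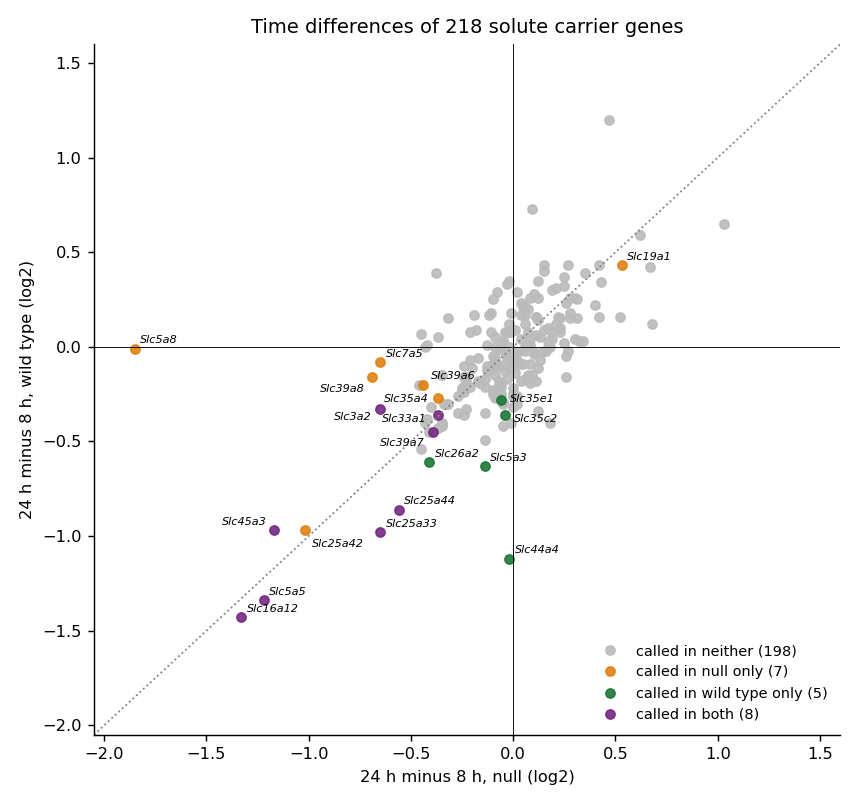
Difference of 24 h minus 8 h (log2) for 218 solute carrier genes in null glands (horizontal axis) and in wild type glands (vertical axis), with equal values on the dotted line. The 8 genes called in both genotypes (purple) lie in the lower left, Slc5a8 (orange) was called in null glands and Slc44a4 (green) in wild type glands.

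**Figure D4:**
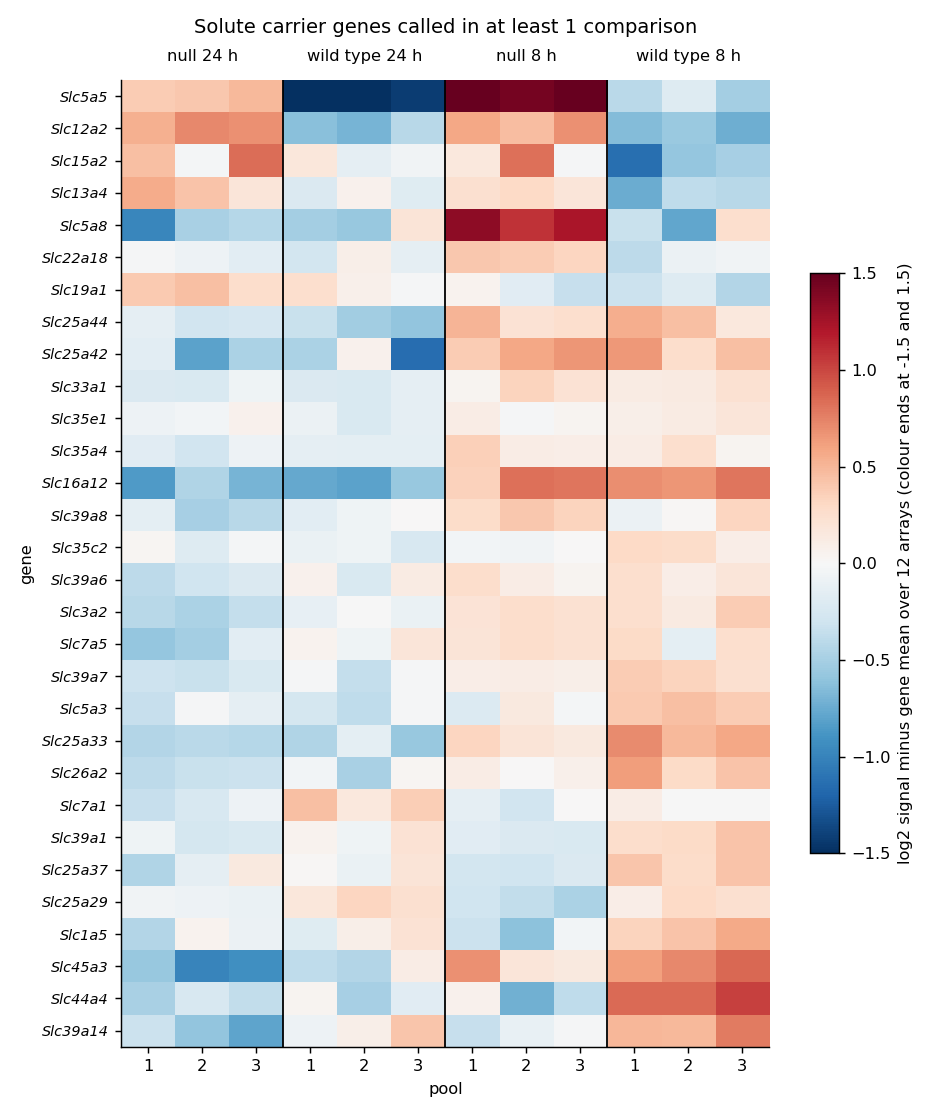
Log2 signal minus the gene's mean over 12 arrays (colour, red higher, blue lower, ends at -1.5 and 1.5) for the 30 solute carrier genes called in at least 1 comparison, 1 column per pool. Genes are ordered by the sum of their genotype differences at both times, so Slc5a5 and Slc12a2 are at the top, and Slc44a4 and Slc39a14, reddest in the wild type 8 h pools, are at the bottom.

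Over all comparisons 30 of 218 solute carriers (13.8%) were called at least once, against 10.2% of all genes tested. Called genes were spread over the substrate classes, with no class called in more than 3 members in 1 direction and comparison. None of the 4 genes classed as other was called. In 4 classes with a named substrate no gene was called either: limma called 0 of 12 carriers of neurotransmitters and osmolytes, 0 of 8 of iron, copper and magnesium, 0 of 7 of phosphate and 0 of 6 of lipids and bile acids in any comparison. At an unadjusted p under 0.05 those 4 classes had 1, 1, 0 and 1 genes between genotypes at 8 h and 1, 0, 0 and 1 at 24 h. In null glands over time they had 1, 2, 0 and 0, and in wild type glands 2, 1, 0 and 1. Over all genes tested, an unadjusted p under 0.05 was found for 16.3% between genotypes at 8 h, 13.8% at 24 h, 21.2% over time in null and 22.1% over time in wild type glands.

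**Figure D5:**
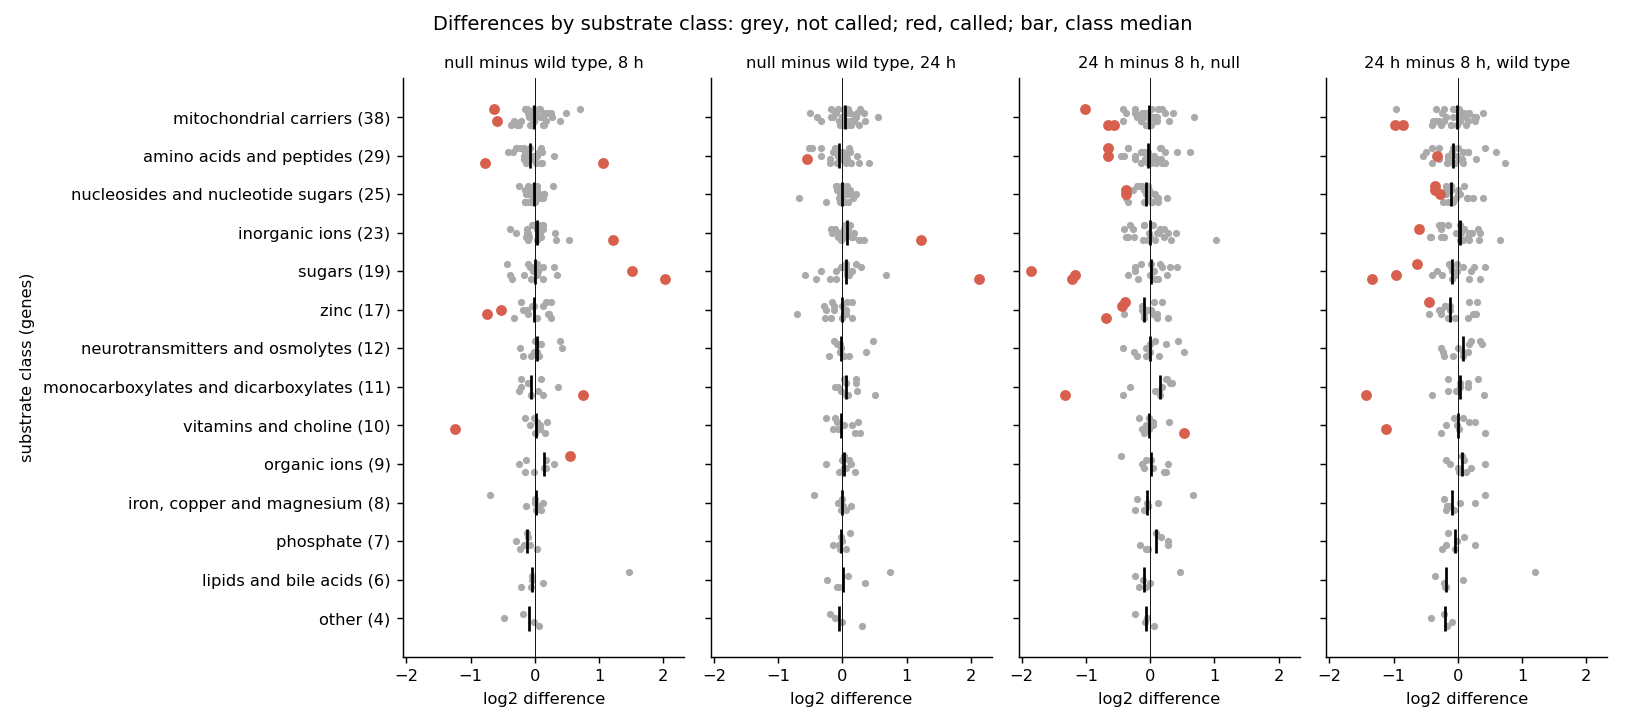
Log2 differences (horizontal axis) of 218 solute carrier genes by substrate class, assigned from the family number (vertical axis, number of genes in brackets), in 4 comparisons. Red points were called, grey points were not, and black bars are class medians. Class medians lie between -0.20 and 0.15, and some uncalled genes lie further out than called genes of their class.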

How the data were processed

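The authors deposited log2 values of 45101 probe sets on 12 Affymetrix arrays, a scale read from their range because no label states it. Arrays had been normalized between each other, judged from percentiles that nearly coincide. The submitters' processing notes name MAS5, which gives linear signals, with no role or version, and how probe sets were summarized, corrected and scaled is not stated in what was used here. For arrays it is their number that limits the precision. Gene names are those of the platform annotation. All 218 member symbols matched a RefSeq gene table (GRCm38.p6), and the promoter table held 170 of them. Leaving out control probe sets, 45037 remained, of which 34945 had 1 symbol, 932 several and 9160 none.

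Probe sets above their array's median on at least 3 of 12 arrays were tested (23709). limma 3.58.1 in R 4.3.3 (lmFit, eBayes with a trended prior) was fitted to the means of the 4 groups (12 arrays, 8 residual degrees of freedom, no block on pool number), and Benjamini-Hochberg p-values were adjusted over all 23709. SE is the moderated standard error, and fold sizes are powers of 2 of the log2 difference. P-values measure the spread between pools. The labels number pools 1 to 3 and do not say what a number shares. Deviations of same-numbered null arrays from their group means correlated across the times (r = 0.52, 0.26 and 0.38), so the numbers were taken as pairing them, and blocked values of that comparison are given where they change a call. In the other comparisons at least 1 same-numbered pair had r under 0.1.

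The members and lists (substrate classes, markers, milk and fat carriers) were chosen with earlier results of these data known. Named were all called members, the milk and fat carriers and the largest differences of the interaction. The planned highest-level member of each class is not given, since levels of different probe sets cannot be compared. The promoter search was widened, after the results were seen, from members called at both times to the called members outside mouse chromosome 18. Of the 21 with a promoter, 5 had more than 1, of which the first listed was counted. Probe sets ending in x_at or s_at can bind related transcripts. They represent 18 members, 3 of them called (Slc35a4, Slc39a7 and Slc45a3). The calculation was tested on simulated data. Alternatives covered filters, prior, floor, scaling, arrays fitted, array weights, block, probe set and each pool left out. Figures were drawn with matplotlib 3.10.9.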

Additional observations from a re-analysis of the deposited data

How the results depend on the processing

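The number of solute carriers called depended most on array weights estimated by limma, which gave 43 (12 without weights) between genotypes at 8 h, 10 (3) at 24 h, 2 (0) for the difference between the times, 62 (15) over time in null and 22 (13) over time in wild type glands. The cause was not tested. Over time in null glands, quantile normalization gave 9 and a fit to the null arrays alone 9, and in wild type glands a fit to the wild type arrays alone gave 7, where fewer arrays were fitted. Among the calls lost in such fits were Slc7a1 at 24 h (adjusted p = 0.17), Slc19a1 over time in null (0.072) and Slc3a2 over time in wild type glands (0.10), and Slc15a2 at 8 h was lost in 5 of 11 settings (up to 0.072). Raising low signals to the lowest array median gave 1 call for the difference between the times, Slc5a5, whose value reversed from 0.11 to -1.16 because the floor lifts its wild type signals at 24 h. With the passing probe set of largest variance, Slc35c2 (0.038) and Slc35e1 (0.062) reversed over time in wild type glands.

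Leaving out each pool in turn gave 7 to 14 calls between genotypes at 8 h, 2 to 7 at 24 h, 0 to 0 for the difference between the times, 6 to 17 over time in null and 5 to 14 over time in wild type glands. At 8 h, 7 were called without pool 1 of the null group, or without pool 1 or 2 of the wild type group. In null glands over time 9 were called without pool 2 at 8 h, and 6 without pool 3 at 8 h or pool 2 at 24 h. In wild type glands 5 were called without wild type 8 h pool 1.

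With the pool number as a replicate block over all 12 arrays, 12 were called between genotypes at 8 h, 4 at 24 h, 0 for the difference between the times, 20 over time in null and 17 over time in wild type glands. A block over the 6 null arrays alone, chosen after seeing the data, gave 10 over time in null glands. The same arrays gave 9 without a block, and the block over all 12 arrays kept all 15 calls of that comparison.

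In every setting tried, pools left out included, 7 calls held at 8 h, 2 at 24 h, 6 over time in null and 4 over time in wild type glands. The median shift of all genes under another scaling was largest for quantile normalization over time in null glands, at 0.05. That shift was larger in size than the median difference of all genes there (-0.025). Signals near or under the array median, such as those of Slc5a5 in wild type glands at 24 h, are closest to background.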

Other observations

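Some solute carriers varied widely between pools of 1 group. The SD within groups had a median of 0.15 over the 218 genes, and 3 genes exceeded 0.5. Slc27a2, an acyl-CoA synthetase and carrier of very long chain fatty acids, had 8.86, 6.85 and 8.14 in null pools at 24 h and 7.39, 8.23 and 6.02 in wild type pools, and 7.76, 7.71 and 6.97 in null pools at 8 h and 6.51, 5.90 and 5.63 in wild type pools. Its difference at 8 h, 1.47, was not called (adjusted p = 0.23). Slc9a7, a sodium and proton exchanger of the Golgi, ranged from 4.92 to 7.23 in null pools at 24 h and from 5.19 to 6.50 in wild type pools. Slc15a3, a lysosomal carrier of peptides and histidine, had 4.96, 5.88 and 6.52 in null pools at 24 h and 5.56, 5.72 and 6.11 in wild type pools.

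Nearest the level filter, 4 members were above the median on exactly 3 arrays, with mean signals of 5.75 for Slc15a3, 5.74 for Slc22a14, 5.67 for Slc2a9 and 5.76 for Slc37a2. Just outside, on 2 arrays, were Slc13a2 (5.68), Slc22a16 (5.64), Slc22a2 (5.74), Slc2a12 (5.71) and Slc5a2 (5.77). The means on either side overlap. Of the 218 members 190 were above the median on all 12 arrays and 28 on fewer, and 0 passed through arrays of 1 group alone. Slc5a5 was above it on 7 arrays, the 6 null arrays and pool 2 of wild type 8 h, so it passed mainly through the genotype where it was high.

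Members represented by more than 1 passing probe set numbered 87. For genes called between genotypes at 8 h, all 9 other passing probe sets had the same sign and 6 of them were called. The 6 were of Slc12a2 and Slc25a29 only, and those of Slc1a5, Slc22a18 and Slc39a14 were not called. At 24 h all 3 had the same sign, and the 2 called were of Slc12a2. Over time in null glands 5 of 6 had the same sign and 3 were called, and in wild type glands 5 of 7 had the same sign and 2 were called.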
